A study of Mus musculus with 12 samples.

Results

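The 7 subunit genes of the NMDA-type glutamate receptor (Grin1, Grin2a, Grin2b, Grin2c, Grin2d, Grin3a and Grin3b) were followed by name through both deposited count tables, 7 of the 44760 genes that the tables share. All 7 were present in both tables and passed the filter on low counts in every comparison. Grin1os, an antisense transcript at the Grin1 locus, and Grina, a membrane protein outside the receptor, are not subunits and were not counted as members. At 18 months Grin2a and Grin2b had 7.75-fold and 10.6-fold the level at 7 months in saline mice, and 17.8-fold and 45.8-fold in nicotine mice. Grin1, Grin2c, Grin2d and Grin3b were not called different between the ages, and no subunit was called different between nicotine and saline.

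The NMDA receptor is a tetrameric cation channel that opens when glutamate and a co-agonist, glycine or D-serine, are bound while the membrane is depolarised, and its calcium current starts synaptic plasticity in the hippocampus. Each channel needs GluN1, the product of Grin1, together with GluN2 subunits (Grin2a to Grin2d) that bind glutamate, or GluN3 subunits (Grin3a, Grin3b) that bind glycine. In the forebrain GluN2B dominates early in life, and GluN2A joins it as synapses mature.

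Each library was made from hippocampal RNA of males of the APPswe/PS1dE9 (APP/PS1) line on a C57BL/6 background (N9B6). The line carries transgenes for amyloid precursor protein with the Swedish mutation and for presenilin 1 with an exon deleted, and serves as a model of amyloid deposition. The mice were 7 or 18 months old and had a pump under the skin that gave nicotine hydrogen tartrate (48 mg/kg/h as labelled) or saline for 14 days. Each of the 4 groups (7-month saline, 7-month nicotine, 18-month saline, 18-month nicotine) had 3 libraries, all from mice with the transgenes, so that no comparison with wild-type mice was possible. The labels do not say whether a library was 1 animal or a pool. Where nothing says that replicates came from separate animals, p-values measure only the spread between these libraries.

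Total counts were 25071195 to 29245972 per library at 7 months and 21260068 to 23715015 at 18 months. Levels are given in CPM, counts scaled to library size by the TMM factors of edgeR. Neuron markers summed to 4306 to 5045 CPM at 7 months and 4668 to 5620 CPM at 18 months, and markers of CA pyramidal and of dentate granule neurons were found in every library. A 7-month saline library, library 2, stood apart from the other 7-month libraries. Transcripts longer than 5000 nt took 32.5% of its counts with a length, 24.1% and 23.7% in the other 7-month saline libraries, and 36.0% to 36.9% in 18-month saline libraries. The first 7-month library of each infusion has another prefix in its description than the others, and all 18-month libraries have another kind again.

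By longest annotated transcript (GENCODE M21, GRCm38) the subunits ranged from 3283 nt to 24060 nt. Grin3b had 3283 nt (chr10:79970715-79977190, plus strand), Grin1 had 4276 nt (chr2:25291181-25319187, minus strand) and Grin2c had 4895 nt (chr11:115249169-115267243, minus strand). Grin2d had 5431 nt (chr7:45831883-45878378, minus strand) and Grin3a had 7491 nt (chr4:49661611-49845744, minus strand). Grin2a had 14634 nt (chr16:9567898-9995560, minus strand) and Grin2b had 24060 nt (chr6:135713233-136173511, minus strand). The coding parts were far more alike, 2877 nt for Grin1, 4392 nt for Grin2a and 4446 nt for Grin2b. The transcript after the coding part, stop codon included, made most of the difference, with 1190 nt in Grin1, 9932 nt in Grin2a and 18868 nt in Grin2b. The 3 longest subunit transcripts also had the lowest GC content, 44.8% in Grin2a, 45.7% in Grin2b and 49.2% in Grin3a, against 59.4% to 65.0% in the other 4.

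Promoter sequences were at hand for 4 of the 7 subunits (RefSeq, GRCm38.p6). The 250 bases before the start are shown for Grin1 and Grin2c, the subunits whose level varied least over the 12 libraries. Both run 5′ to 3′ on the minus strand, at chr2:25319188-25319437 and chr11:115267244-115267493. Capitals mark the short form of the cAMP response element (TGACG, or CGTCA on the other strand) and the GC box bound by Sp factors (GGGCGG, or CCGCCC on the other strand).
Grin1: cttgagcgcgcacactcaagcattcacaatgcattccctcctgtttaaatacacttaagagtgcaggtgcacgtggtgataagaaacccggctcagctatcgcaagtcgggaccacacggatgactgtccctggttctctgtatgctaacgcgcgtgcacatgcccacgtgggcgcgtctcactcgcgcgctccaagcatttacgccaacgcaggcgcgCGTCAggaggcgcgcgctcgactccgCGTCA
Grin2c: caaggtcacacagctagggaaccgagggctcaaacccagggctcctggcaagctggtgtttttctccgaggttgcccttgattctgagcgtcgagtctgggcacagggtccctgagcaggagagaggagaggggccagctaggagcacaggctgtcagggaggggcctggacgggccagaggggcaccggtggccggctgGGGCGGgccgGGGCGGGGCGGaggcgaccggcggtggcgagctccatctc
The Grin1 window had a GC content of 58.8% and 27 CpG, with short forms whose first bases lie at -31 and -5 from the start. The Grin2c window had a GC content of 68.8% and 15 CpG, with GC boxes from -50, -40 and -35, of which the last pair overlap. Over all 27025 promoters of this length the medians were 52.0% GC and 6 CpG, and 17.9% held the short form and 32.9% a GC box. The windows of Grin2d and Grin3b, not shown, held neither motif and had 54.4% GC with 9 CpG and 46.0% GC with 2 CpG. The full cAMP response element (TGACGTCA) and an EGR site (GCGGGGGCG or GCGTGGGCG) had no match in any of the 4 windows. Over all promoters 1.6% and 3.0% held them. A match is a description of the letters and no evidence of binding.

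Per kb of the longest transcript, Grin1 was the most abundant subunit in every group. Its mean level was 147 CPM per kb ± 9.84 (SD, n = 3) in 7-month saline, 152 ± 17.5 in 7-month nicotine, 159 ± 12.0 in 18-month saline and 161 ± 8.57 in 18-month nicotine mice. Grin2c came next at 7 months, with 19.5 CPM per kb ± 1.28 in saline and 21.6 ± 2.22 in nicotine mice, followed by Grin2d and Grin3a, whose libraries overlapped. At 18 months Grin2b (19.3 CPM per kb ± 2.03 in saline, 19.5 ± 1.64 in nicotine) stood level with Grin2c (18.8 ± 0.285 and 18.9 ± 0.577), and their libraries overlapped. Grin2a came after them with 14.0 CPM per kb ± 1.72 in saline and 15.1 ± 0.533 in nicotine mice, below every Grin2c library of its group. Then came Grin3a, Grin2d and Grin3b, each with all libraries of a group above those of the next. In 7-month nicotine mice Grin2b was last at 0.426 CPM per kb ± 0.0849, where its libraries overlapped those of Grin3b (0.505 ± 0.0750). The order depends on the length used: per kb of the median annotated transcript, Grin2b had 662 CPM and Grin1 177 CPM in 18-month saline mice. By longest transcript, the place of Grin2a and Grin2b in the order differed between the ages, and that of Grin1 did not.

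Grin1 encodes the subunit that every NMDA receptor contains. It had 639, 581 and 662 CPM in 7-month saline libraries 1 to 3 and 566, 710 and 674 CPM in 7-month nicotine libraries. At 18 months it had 736, 636 and 663 CPM with saline and 657, 682 and 730 CPM with nicotine. The 4 groups overlapped, and the highest library was 1.30 times the lowest. Grin1 and Grin1os share 1307 exonic bases on opposite strands, and the strand setting of the counting is not given in the sources used here, so that reads from these bases cannot be told apart. Grin1os had 23.2 CPM ± 0.238 in 7-month saline and 46.3 ± 2.37 in 18-month saline mice, and 25.7 ± 3.83 and 45.3 ± 2.68 in nicotine mice (SD, n = 3).

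Grin2a encodes GluN2A, the subunit of mature synapses with fast deactivation. It had 12.7, 51.6 and 15.2 CPM in 7-month saline libraries 1 to 3 and 10.9, 12.6 and 13.8 CPM in 7-month nicotine libraries. At 18 months it had 228, 178 and 209 CPM with saline and 225, 212 and 227 CPM with nicotine. The ages did not overlap, and library 2 of the 7-month saline mice was 3.39 times the next highest 7-month library. In raw counts the 12 libraries had 314 to 5312.

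Grin2b encodes GluN2B, which has slow deactivation and binds CaMKII. It had 10.2, 105 and 16.7 CPM in 7-month saline libraries 1 to 3 and 8.20, 10.2 and 12.3 CPM in 7-month nicotine libraries. At 18 months it had 521, 435 and 439 CPM with saline and 459, 513 and 436 CPM with nicotine. Here too the ages did not overlap, and 7-month saline library 2 lay between them. On the CPM scale it was at 20.6% of the way from the mean of the other 7-month libraries to the 18-month mean. On the log2 scale it departed by 3.23 from the mean of the other 7-month libraries. The highest library was 63.6 times the lowest, the widest range of the 7 subunits.

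Grin2c encodes GluN2C, best known from cerebellar granule cells and astrocytes. It had 101, 88.6 and 96.7 CPM in 7-month saline, 93.4, 113 and 112 CPM in 7-month nicotine, 92.1, 90.7 and 93.5 CPM in 18-month saline and 95.3, 89.7 and 93.3 CPM in 18-month nicotine libraries. The groups overlapped, and the highest library was 1.27 times the lowest. Grin2d, which encodes GluN2D, a subunit of interneurons in the adult forebrain, had 13.4 to 21.6 CPM over the 12 libraries, with its highest value in 7-month saline library 2.

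Grin3a encodes GluN3A, which lowers calcium permeability and is known from young synapses. It had 20.7, 33.7 and 16.4 CPM in 7-month saline, 21.6, 19.3 and 20.9 CPM in 7-month nicotine, 31.8, 28.9 and 35.7 CPM in 18-month saline and 33.1, 40.1 and 29.4 CPM in 18-month nicotine libraries. The value of 7-month saline library 2 lay inside the 18-month range, and every other 7-month library lay below that range. Grin3b, which encodes GluN3B, was near the limit of detection, with 16 to 56 counts per library and 0.720 to 1.94 CPM. It shares 1059 exonic bases with Tmem259 on the opposite strand, whose group means were 100 to 162 CPM, so that its counts are uncertain without the strand setting.

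**Figure D1:**
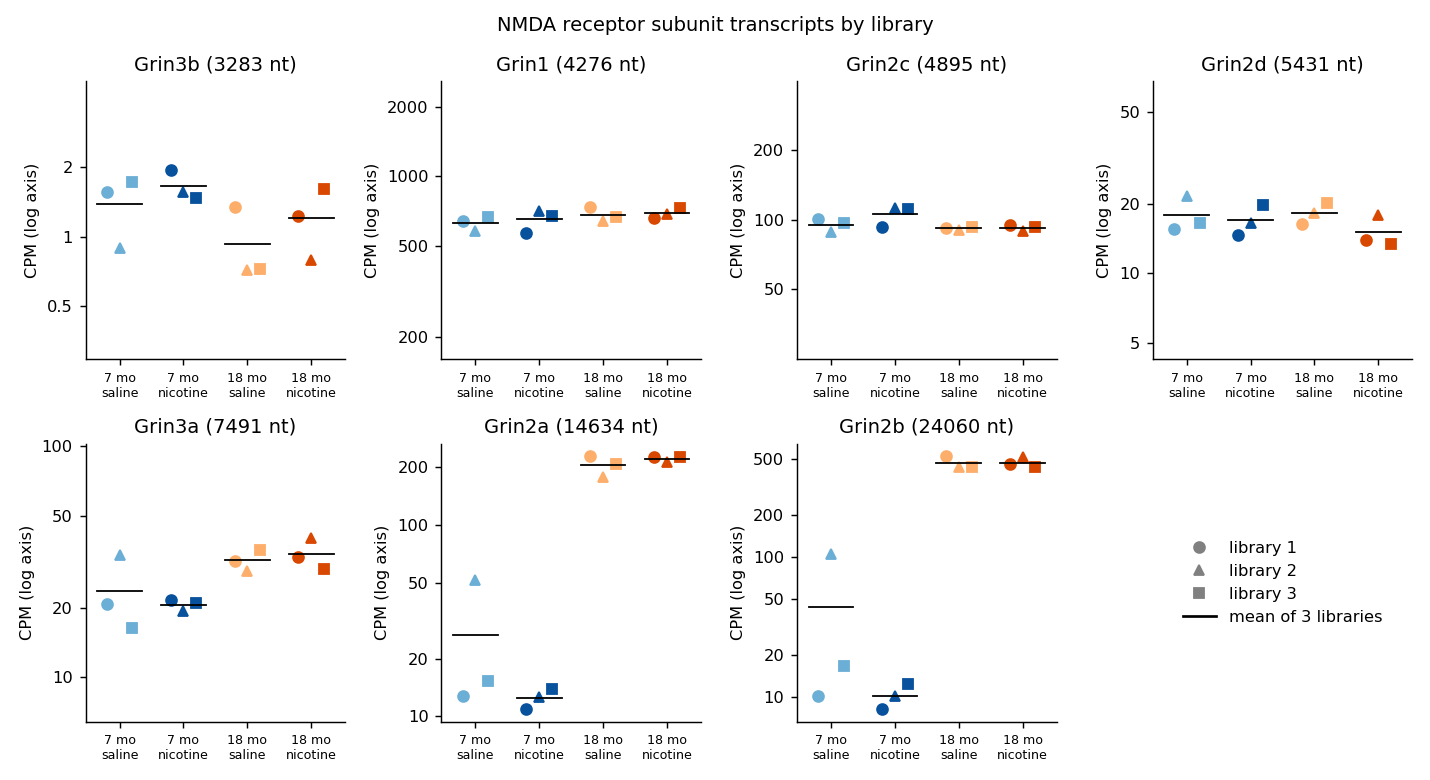
Level of each NMDA receptor subunit transcript in CPM (log axis, scale set per panel) in the 12 libraries, with the mean of each group as a line and panels ordered by longest transcript. Grin2a and Grin2b are higher in every 18-month library than in any 7-month library, and 7-month saline library 2 lies between the ages for both; Grin1 and Grin2c stay within a 1.30-fold range.

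Age was compared within each infusion, to ask how hippocampal expression of the subunits differs between an early and a late stage of the model. In saline mice 2 of 7 subunits were called higher at 18 months and 0 lower at an adjusted p of 0.05 (edgeR quasi-likelihood test, Benjamini-Hochberg over all 19171 genes tested), where 21.5% of all genes were called higher, 24.6% lower and 46.1% either way. Grin2a had a log2 fold change of 2.95 (SE 0.41, 95% interval 2.06 to 3.85, edgeR adjusted p = 0.000343). Grin2b had a log2 fold change of 3.40 (SE 0.66, 95% interval 1.98 to 4.83, edgeR adjusted p = 0.00185). Grin3a had 0.45 (95% interval -0.02 to 0.91, edgeR adjusted p = 0.103) and did not pass. The log2 fold changes of Grin1 (0.11, 95% interval -0.11 to 0.33), Grin2c (-0.05, 95% interval -0.24 to 0.13) and Grin2d (0.03, 95% interval -0.32 to 0.38) were near 0. Grin3b had -0.58 with a wide 95% interval, -1.33 to 0.17.

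In nicotine mice 3 of 7 subunits were called higher at 18 months and 0 lower, where 29.5% of all genes were called higher, 29.8% lower and 59.3% either way. Grin2a had a log2 fold change of 4.15 (SE 0.44, edgeR adjusted p = 4.09e-05) and Grin2b had 5.52 (SE 0.73, edgeR adjusted p = 0.000114). Grin3a was higher by 0.73 on the log2 scale (SE 0.21, edgeR adjusted p = 0.0108), a 1.66-fold difference. This call ended without 18-month nicotine library 2, where its log2 fold change was 0.60 (edgeR adjusted p = 0.0501). Grin2c had -0.19 (95% interval -0.38 to -0.01, edgeR adjusted p = 0.0692), Grin2d -0.17 and Grin3b -0.46, none of them called. By the libraries themselves, 18 months lay wholly above 7 months for 2 of 7 subunits in saline mice (24% of all genes) and for 3 of 7 in nicotine mice (34.4% of all genes). The comparisons contrast different libraries, but both come from 1 fit of all 12 with a shared spread per gene, so that they are not independent. The saline contrast holds 7-month saline library 2, which also enters the spread used for nicotine mice. Without that library the saline log2 fold changes were 3.90 for Grin2a, 5.14 for Grin2b and 0.82 for Grin3a, which then passed (edgeR adjusted p = 0.00029). In nicotine mice Grin2a then had 4.16 (edgeR adjusted p = 4.41e-10) and Grin2b 5.53 (edgeR adjusted p = 1.56e-09).

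Age cannot be told apart here from the deposited table, the kind of library description and the profile of transcript lengths, all of which differ between the 7-month and the 18-month libraries. Over all genes the median log2 age difference in saline mice went from -0.36 for transcripts up to 1000 nt and -0.47 for 1000 to 2000 nt to 0.05 for 4000 to 5000 nt, 0.27 for 5000 to 8000 nt and 0.79 above 12000 nt. The same medians in nicotine mice were -0.50, -0.63, 0.12, 0.46 and 1.12. The subunits followed the order of these bins in part. Grin1, with 0.11 and 0.09, lay near the median of the genes of 4000 to 5000 nt, and Grin3a had 0.45 and 0.73 where genes of 5000 to 8000 nt had 0.27 and 0.46. Grin2c, in the bin of Grin1, had -0.05 in saline mice, inside the quartiles, and -0.19 in nicotine mice, below the lower quartile of -0.17. Grin2d, in the same length bin as Grin3a, lay below its lower quartile (0.05 and 0.15), with 0.03 and -0.17. Grin3b, with -0.58 and -0.46, lay below the lower quartile of the genes of 3000 to 4000 nt (-0.32 and -0.39).

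Grin2a and Grin2b lay far above the genes of their own length. Of 187 genes with a transcript above 12000 nt, 1 had a larger age difference than Grin2b in saline mice (Zbtb20, a transcription factor, with 4.71) and 0 in nicotine mice. For Grin2a the numbers were 2 in saline and 4 in nicotine mice. In both infusions 239 genes had an age difference at least as large as that of Grin2a, itself included, and 83 of them had an annotated length. Most of those 83, 64 genes, had transcripts of up to 2000 nt, and 5 had transcripts above 5000 nt: Grin2a, Grin2b, Zbtb20, Lrtm1 and the noncoding Malat1, named after their values were seen. Of all 16200 genes tested with a length, 1381 had up to 1000 nt and 2846 had 1000 to 2000 nt. Above 5000 nt there were 2489 of up to 8000 nt, 701 of 8000 to 12000 nt and 187 longer ones. The 239 were taken by log2 fold change alone, whether called or not.

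**Figure D2:**
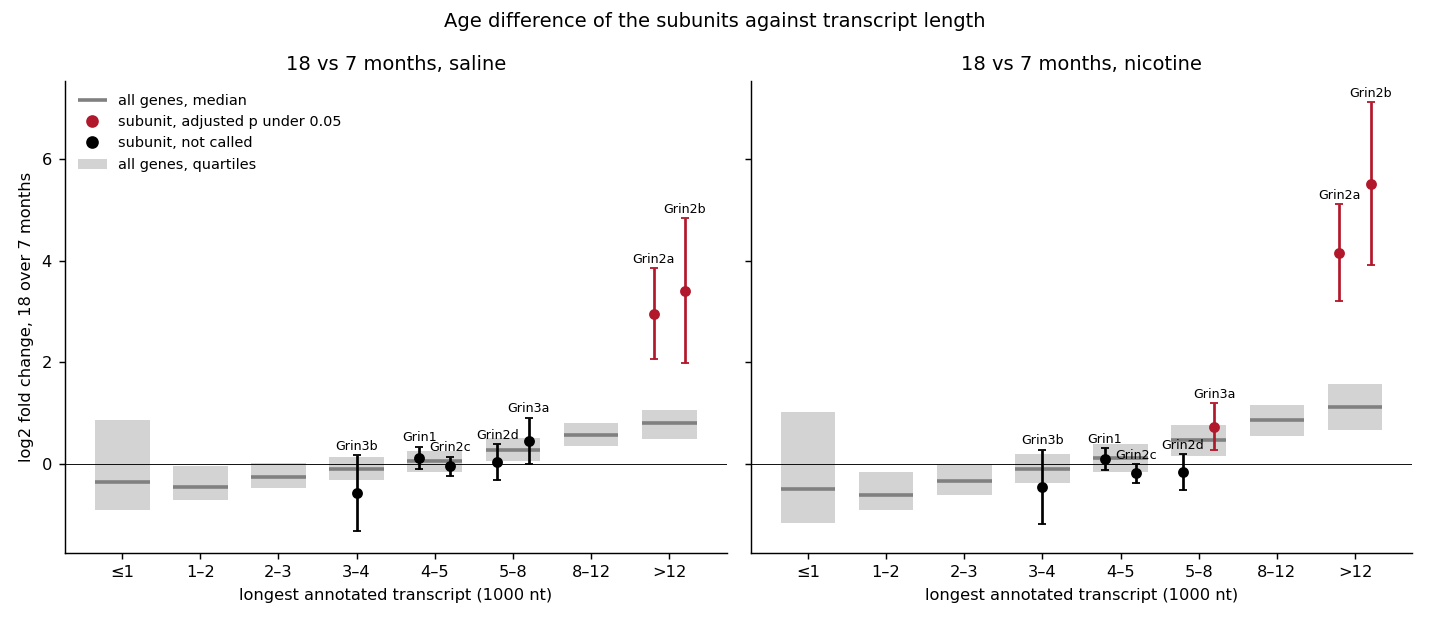
Log2 fold change of 18 over 7 months for the 7 subunits (points with 95% intervals, red where the edgeR adjusted p is under 0.05) beside the quartiles and median of all genes in 8 bins of longest transcript, in saline mice (left) and nicotine mice (right). Grin1 and Grin3a lie inside the quartiles of their bin, Grin2d and Grin3b below them, and Grin2c inside in saline and below in nicotine mice. Grin2a and Grin2b lie far above the median of 0.79 and 1.12 for transcripts above 12000 nt.

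With offsets for the transcript length and GC content of each library, Grin2a kept a log2 fold change of 2.23 in saline (edgeR adjusted p = 6.7e-05) and 2.88 in nicotine mice (edgeR adjusted p = 1.14e-05). Grin2b kept 2.55 (edgeR adjusted p = 0.00125) and 3.92 (edgeR adjusted p = 9.01e-05). Grin3a went to -0.02 in saline and -0.002 in nicotine mice, where its call ended (edgeR adjusted p = 0.992). Grin2c had -0.22 in nicotine mice and was called lower with these offsets (edgeR adjusted p = 0.025), as it was without 7-month saline library 2 (-0.18, edgeR adjusted p = 0.0353) and without 7-month nicotine library 1 (-0.28, edgeR adjusted p = 0.011). Fits with offsets rest on genes with an annotated length and use 1 curve per library, so that they describe the typical gene of a length.

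Markers of several cell types also differed between the ages, where 46.1% of all genes were called in saline and 59.3% in nicotine mice. Of 6 astrocyte markers, Slc1a2 of the glutamate transporters among them, 4 were called higher and 2 lower in both infusions, and their summed level was 3686 to 4220 CPM in 7-month saline, 5291 to 5846 CPM in 18-month saline, 3528 to 3783 CPM in 7-month nicotine and 5343 to 5644 CPM in 18-month nicotine libraries. Dentate granule neuron markers had 0 of 5 called higher and 2 lower in saline mice and 3 of 5 higher and 0 lower in nicotine mice, with summed levels of 226 to 272, 264 to 273, 183 to 206 and 214 to 483 CPM in the same order of groups. Of 9 inhibitory neuron markers 1 was called higher and 4 lower in saline mice, and 1 and 5 in nicotine mice, and their sums did not overlap between the ages, with 698 to 766, 604 to 625, 742 to 876 and 570 to 611 CPM. Oligodendrocyte markers had log2 fold changes above 0 for 0 of 6 genes in both infusions, with 3 called lower in saline and 1 in nicotine mice. Their sums were 5473 to 6660, 3071 to 5453, 4036 to 5553 and 3103 to 4385 CPM. Choroid plexus markers had 0 of 7 above 0 and 0 called in both, with medians of -2.66 and -1.59. Their sums were 127 to 1619, 20.2 to 91.0, 57.1 to 6140 and 23.2 to 1511 CPM. Both pituitary markers tested were called lower in nicotine mice, where the pituitary sums were 1.53 to 174 CPM at 7 and 0.373 to 1.94 CPM at 18 months, the highest in 7-month nicotine library 1. Fewer cells of a type, less RNA per cell and the length profile of the libraries cannot be told apart in these bulk samples. Of the astrocyte, dentate granule, inhibitory neuron and oligodendrocyte markers called lower, 0 had a transcript above 5000 nt. Of the 4 astrocyte markers called higher, 2 had one above 5000 nt in both infusions. Oligodendrocyte precursor markers went otherwise. Of these 4 genes, 2 were called higher and 2 lower in saline mice, and 1 and 2 in nicotine mice. In both infusions 1 of the 2 called lower had a transcript above 5000 nt (5195 nt), as had every one called higher. With length and GC offsets Slc1a2 had -0.21 in saline and -0.16 in nicotine mice. The part of these cell types in the age differences of the subunits was not tested.

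Genes with the most similar profiles over the 12 libraries were found by the root mean square difference of log2 CPM, each gene centred on its mean, among 12545 genes. For Grin2a these included Kcnh7 (distance 0.233) and Trpc5 (0.325), where the median gene was at 1.99. For Grin2b they included Lnpep (0.376) and Dok6 (0.389), with the median gene at 2.63. Kcnh7, Lnpep and Dok6 had transcripts of 10099 to 13321 nt, and Trpc5 had one of 4158 nt. For Grin1 they were Cog2 (0.0473), the neuronal splicing factor Rbfox3 (0.0513) and Tecpr1 (0.0547), with the median gene at 0.297 and transcripts of 2825 to 5106 nt. All distances rest on the same 12 libraries and on their shared length profile.

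The spread within the 7-month saline group was uneven among the subunits. The SD of log2 CPM over its 3 libraries was 1.77 for Grin2b, 1.10 for Grin2a, 0.53 for Grin3a, 0.49 for Grin3b, 0.25 for Grin2d, 0.0982 for Grin1 and 0.0958 for Grin2c. Over all genes tested the median SD in that group was 0.277, against 0.139, 0.125 and 0.117 in the 7-month nicotine, 18-month saline and 18-month nicotine groups. A larger SD than that of Grin2b was seen in 0.777% of genes, and a larger one than that of Grin2a in 4.00%. Without library 2 the SD of Grin2b was 0.50 and that of Grin2a was 0.179, and without library 1 they were 1.87 and 1.24.

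Library 2 departed from the mean of the other 7-month libraries by 3.23 on the log2 scale for Grin2b, 1.99 for Grin2a, 0.77 for Grin3a and 0.39 for Grin2d, and by -0.16 for Grin1, -0.21 for Grin2c and -0.85 for Grin3b. The longer subunits were high and the shorter ones low in this library. The median gene also went up with length, from -0.69 for transcripts up to 1000 nt to 0.12 for 4000 to 5000 nt and 0.76 above 12000 nt. Grin1 and Grin2c, both of 4000 to 5000 nt, lay below 0 where the median gene of that length lay above it. Grin3b lay below the median of -0.06 for 3000 to 4000 nt. Grin2b and Grin2a again departed by more than the median gene above 12000 nt. Library 3 departed by 0.72 for Grin2b and 0.28 for Grin2a, where the median gene above 12000 nt was at 0.04. What sets library 2 apart was not tested.

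**Figure D3:**
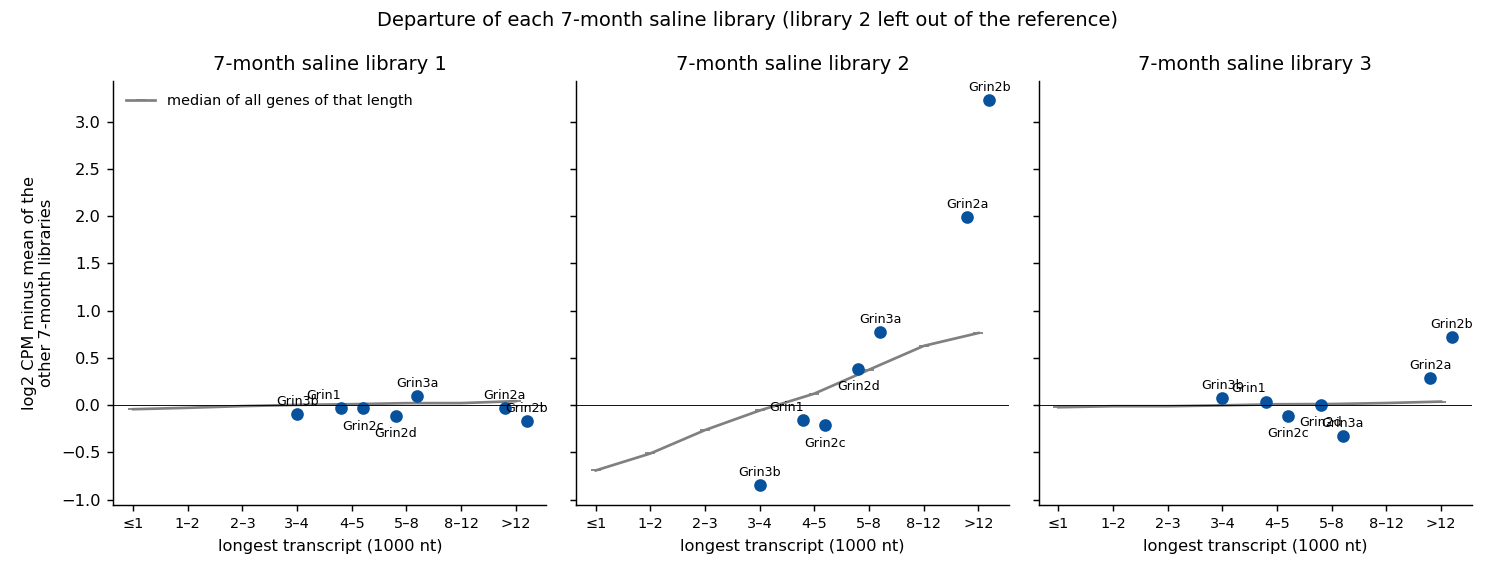
Difference of log2 CPM between each 7-month saline library and the mean of the other 7-month libraries (library 2 left out of the reference) for the 7 subunits (points) and the median gene of each length bin (line). In library 2 the line climbs from -0.69 to 0.76 and Grin2b and Grin2a lie above it at 3.23 and 1.99; in libraries 1 and 3 the line stays between -0.04 and 0.04.

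The balance of the GluN2 genes differed in the same way. The ratio of Grin2b to Grin2a CPM was 0.752 to 1.10 in 5 of the 7-month libraries, 2.04 in 7-month saline library 2 and 1.92 to 2.44 at 18 months. The ratio of Grin2b to Grin1 CPM was 0.0144 to 0.0253 in the 5 libraries, 0.181 in library 2 and 0.597 to 0.751 at 18 months. By this ratio too, library 2 lay between the ages, while by the ratio of Grin2b to Grin2a it lay within the 18-month range. Lengths cancel in a ratio followed across libraries, but not the difference in length profile between libraries.

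The effect of the infused nicotine was then asked at each age. At 7 months 0 of 7 subunits were called (edgeR), where 0.0114% of 17596 genes were called. An unadjusted p under 0.05 was reached by 1 subunit, Grin2b, and by 1144 of all genes. DESeq2 called 0 of 7 as well. Grin2b had a log2 fold change of -2.14 (SE 0.82, 95% interval -4.05 to -0.23, edgeR adjusted p = 0.656). Grin2a had -1.12 (SE 0.51, 95% interval -2.31 to 0.08, edgeR adjusted p = 0.656). Both values rest on 7-month saline library 2: without it Grin2b had -0.39 (95% interval -0.99 to 0.20) and Grin2a -0.17 (95% interval -0.51 to 0.17). The other 5 subunits had log2 fold changes from -0.22 (Grin3a) to 0.24 (Grin3b). Nicotine and saline libraries overlapped for all 7 subunits, where 17.4% of all genes had groups that did not overlap. Without the first library of each group, which have another prefix in their descriptions, Grin2b had -2.46 and Grin2a -1.36 (edgeR adjusted p = 0.693 for both). A 1-library comparison within that prefix has no replicates: the first libraries had 8.20 CPM of Grin2b with nicotine against 10.2 CPM with saline.

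Markers of tissues outside the hippocampus proper also differed between the 7-month libraries. The choroid plexus list summed to 127 to 1619 CPM with saline and 57.1 to 6140 CPM with nicotine, highest in nicotine library 1, with positive log2 fold changes for 7 of 7 genes and 0 called. The pituitary list reached 174 CPM in the same library and at most 3.06 CPM in the other 7-month libraries. That library had the lowest CPM of the 7-month libraries for Grin1, Grin2a, Grin2b and Grin2d. It had the highest for Grin3b, with 1.94 CPM. For Grin3a, with 21.6 CPM, only 7-month saline library 2 was higher, and for Grin2c, with 93.4 CPM, only saline library 2 was lower. The cerebellar granule neuron list summed to 23.3 to 40.6 CPM with saline and 8.59 to 19.3 CPM with nicotine, without overlap. Of its 3 tested genes 0 had a log2 fold change above 0 (median -0.60) and 0 were called. The thalamus list summed to 99.3 to 118 CPM and 74.3 to 109 CPM, with 1 of 5 genes above 0 (median -0.27) and 0 called. Of 5 dentate granule neuron markers, 0 had a log2 fold change above 0 at 7 months (median -0.46) and 0 were called. The part of these markers in the subunit values was not tested.

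At 18 months 0 of 7 subunits were called (edgeR), where 0.044% of 18196 genes were called, and DESeq2 called 0. An unadjusted p under 0.05 was reached by 0 subunits and by 1225 of all genes. Log2 fold changes of 5 subunits lay between -0.004 and 0.10, with 95% intervals of -0.14 to 0.16 for Grin1, -0.08 to 0.28 for Grin2a, -0.19 to 0.19 for Grin2b, -0.10 to 0.09 for Grin2c and -0.19 to 0.34 for Grin3a. Grin2d had -0.29 (95% interval -0.58 to 0.00033, edgeR adjusted p = 0.739), with 13.9, 18.0 and 13.4 CPM under nicotine and 16.4, 18.3 and 20.2 CPM under saline. Grin3b had 0.36 with a 95% interval of -0.41 to 1.14, which its low counts make wide. Nicotine and saline libraries overlapped for all 7 subunits, where 11.8% of all genes had groups that did not overlap. Choroid plexus markers summed to 20.2 to 91.0 CPM with saline and to 1511 CPM in nicotine library 1, against 23.2 and 27.7 CPM in the other nicotine libraries, with positive log2 fold changes for 4 of 4 genes tested (median 2.22) and 0 called. Of 5 dentate granule neuron markers, 5 had a log2 fold change above 0 (median 0.43) and 0 were called. The part of these markers in the 18-month values was not tested.

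Averaged over both ages, 0 of 7 subunits were called (0.0365% of 19171 genes). An unadjusted p under 0.05 was reached by 1 of them and by 1316 of all genes. DESeq2 called 0, but it gave no adjusted p for Grin2b in the fit of all 12 libraries and could not call this gene. The lowest edgeR adjusted p was 0.687, that of Grin2b with a log2 fold change of -1.05. The nicotine effect was not shown to differ between the ages for any subunit: 0 of 7 were called (0.00522% of all genes). Here 1 subunit, Grin2b, had an unadjusted p under 0.05, as did 1504 of all genes. DESeq2 called 0, again without an adjusted p for Grin2b. Grin2b had a difference of 2.12 on the log2 scale (95% interval 0.21 to 4.02, edgeR adjusted p = 0.623) and 0.39 without 7-month saline library 2 (95% interval -0.17 to 0.95).

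**Figure D4:**
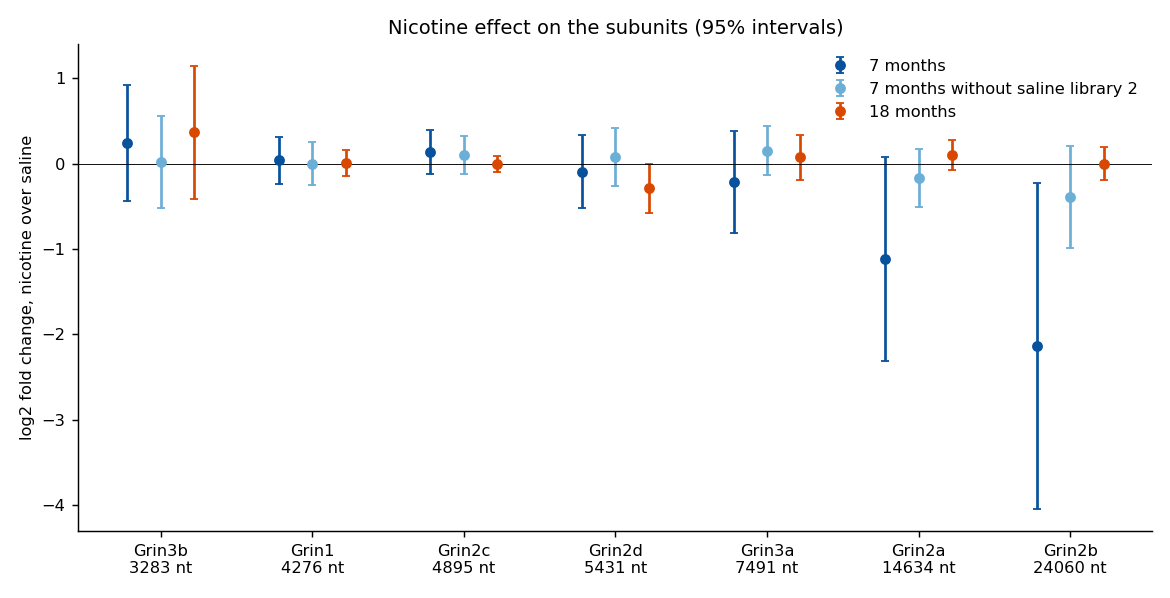
Log2 fold change of nicotine over saline for the 7 subunits, ordered by longest transcript, with 95% intervals at 7 months, at 7 months without saline library 2, and at 18 months. At 7 months Grin2b and Grin2a lie at -2.14 and -1.12 and move to -0.39 and -0.17 without that library; the adjusted p of every point drawn is above 0.05.

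Genes that act around the receptor were described by 5 further lists. Among scaffolds of the postsynaptic density, 13 of 22 genes rose with age and 1 fell in saline mice, and 16 rose and 1 fell in nicotine mice. Of all genes tested, 21.5% were called higher and 24.6% lower in saline mice, and 29.5% and 29.8% in nicotine mice. The list's median log2 fold change was 0.44 and 0.79, where the median of all genes was -0.03 in both. Shank1, a scaffold at the base of the density, had 1.77 (edgeR adjusted p = 0.000285) in saline and 2.17 (5.19e-05) in nicotine mice. Dlgap2 had 1.36 and 1.89 and was called in both, and Lrrc7, with 1.11 in saline mice, was called in both as well. Shank3 had 0.65 and 0.78 and Dlg4, which encodes PSD-95 and binds the GluN2 tails, 0.33 and 0.36, called in both. Cnksr2 was called with 1.67 in nicotine mice. Homer1 had 0.23 (edgeR adjusted p = 0.258) in saline mice and rose by 0.92 in nicotine mice. Gipc1 fell by 0.32 and 0.69, a call that ended in saline mice when any of 9 of the 12 libraries was left out. Transcripts above 5000 nt made up 16 of the 22 genes, 11 of the 13 called higher in saline and 15 of the 16 in nicotine mice. With length and GC offsets 9 were called higher and 2 lower in saline mice, and 10 and 3 in nicotine mice, and Dlg4 had -0.09 and -0.26.

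The list for the supply and removal of glycine and D-serine also holds Ddo, an oxidase of D-aspartate rather than of D-serine. Among its 15 tested genes, 0 rose and 7 fell in saline mice (median -0.28), and 3 rose and 7 fell in nicotine mice (median -0.11). The all-gene shares were 21.5% higher and 24.6% lower in saline mice and 29.5% and 29.8% in nicotine mice. The serine synthesis enzymes fell together: Phgdh by 0.81 and 0.96, Psph by 0.75 and 0.93, and Psat1 by 0.44 and 0.46. Gcsh, of the glycine cleavage system, fell by 0.65 and 0.89. Srr, the D-serine racemase, had 0.27 (edgeR adjusted p = 0.0625) in saline mice and rose by 0.50 in nicotine mice, where Gldc rose by 0.33 and Ddo by 0.39. The Ddo call ended when any of 7 of the 12 libraries was left out, with 0.29 to 0.48 and an edgeR adjusted p of up to 0.167, the highest without 18-month nicotine library 3. The glycine transporter Slc6a9 had -0.02 and 0.002. The genes called lower had transcripts of at most 3894 nt in saline mice and 2877 nt in nicotine mice, and 0 of the 15 had one above 5000 nt. With the offsets 0 were called higher and 6 lower in saline mice, and 3 and 5 in nicotine mice.

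Of 14 genes for glutamate release and uptake, 1 rose and 3 fell in saline mice (median -0.05), and 2 rose and 4 fell in nicotine mice (median -0.03). These counts were near or below the shares of all genes, 21.5% called higher and 24.6% lower in saline mice and 29.5% and 29.8% in nicotine mice. Slc1a2, the main astrocyte glutamate transporter, rose by 0.53 and 0.95, and has a transcript of 11595 nt. With length and GC offsets it had -0.21 and -0.16, and 0 genes of the list were called higher in either infusion. In saline mice 0 genes were called in either direction without 7-month saline library 1 or 18-month saline library 3. The Slc1a2 call in saline mice also ended without 7-month saline library 3, and its edgeR adjusted p was up to 0.084, without 7-month saline library 1. Slc38a1, a glutamine transporter, rose by 0.67 in nicotine mice and had -0.05 with the offsets. Gls2 fell by 0.55 and 0.52, Glul by 0.26 and 0.31 and Glud1 by 0.19 and 0.19, while Slc1a6 fell by 0.37 in nicotine mice and had 0.08 with the offsets. In nicotine mice the Glud1 call ended without 7-month library 2 or 3 or 18-month library 2 (edgeR adjusted p up to 0.071, without the last of these). The Slc1a6 call ended without 7-month nicotine library 2 or 3 or 18-month nicotine library 1 or 3 (edgeR adjusted p up to 0.0938, without 18-month library 1). In saline mice the Glud1 call ended when any of 5 of the 12 libraries was left out (edgeR adjusted p up to 0.097, without 18-month saline library 1). Slc17a7, the vesicular transporter of most hippocampal glutamate neurons, had 0.06 and -0.11 and was not called.

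Of 33 kinases, phosphatases and auxiliary proteins of the receptor, 5 rose and 8 fell in saline mice (median -0.05), and 9 rose and 8 fell in nicotine mice (median 0.06). These counts were near or below the shares of all genes, 21.5% called higher and 24.6% lower in saline mice and 29.5% and 29.8% in nicotine mice. Akap5, an anchor for kinases and calcineurin, rose by 1.02 and 1.46, Apba1, an adaptor of vesicle transport, by 0.90 and 1.05, and Prkcb, a protein kinase C, by 0.73 and 1.07. Cdk5, a kinase of GluN2 subunits, fell by 0.80 and 1.09 (edgeR adjusted p = 0.000787 and 6.91e-05), and Ppp1ca, a catalytic unit of protein phosphatase 1, by 0.52 and 0.66. Ptpn5, the phosphatase STEP, fell by 0.39 and 0.48. Calm2 fell by 0.64 and Prkca rose by 0.38 in saline mice, Prkca with -0.19 under the offsets, and Fbxo2 fell by 1.12 and Lrp8 rose by 0.91 in nicotine mice. Camk2a had 0.30 (edgeR adjusted p = 0.0765) in saline mice and rose by 0.46 in nicotine mice, Camk2b had -0.10 and 0.05, and the auxiliary subunit Neto1 rose by 0.58 in saline mice and had 0.31 in nicotine mice (-0.52 with the offsets). The Neto1 call in saline mice ended when any of 8 of the 12 libraries was left out, with 0.40 to 0.99 and an edgeR adjusted p of up to 0.163, and that of Prkca when any of 7 was, with 0.23 to 0.58 and an edgeR adjusted p of up to 0.162. For both the highest p came without 7-month saline library 1, and the highest log2 fold change without 7-month saline library 2. Transcripts above 5000 nt were 4 of the 5 called higher and 0 of the 8 called lower in saline mice, and 7 of 9 and 0 of 8 in nicotine mice. Without 7-month saline library 2, 10 were called higher and 9 lower in saline mice, and without 7-month saline library 1 or 3 there were 3 called higher.

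Of 19 tested genes downstream of the calcium signal, 6 rose and 1 fell in saline mice (median 0.22), and 13 rose and 2 fell in nicotine mice (median 0.43). The all-gene shares were 21.5% higher and 24.6% lower in saline mice and 29.5% and 29.8% in nicotine mice. Nos1, the neuronal nitric oxide synthase, rose by 0.96 and 1.23, Tiam1 by 0.74 and 1.30, and Kalrn by 0.63 and 1.04, the last of these with -0.09 in saline mice under the offsets. Nos1ap rose by 0.47 in saline mice and Rasgrf1 by 0.49 in nicotine mice. Mapk3, the kinase ERK1, fell by 0.43 and 0.65, the saline call ending without 7-month saline library 3 (edgeR adjusted p = 0.0542), and Nsmf fell by 0.63 in nicotine mice. Creb1 had -0.08 in saline mice and rose by 0.43 in nicotine mice (-0.41 with the offsets). That call ended without 7-month nicotine library 2 or 3 or 18-month nicotine library 1 or 3, with an edgeR adjusted p of up to 0.114 without 7-month library 2. Bdnf had -0.20 and -0.08, not called in either. With length and GC offsets 4 rose and 3 fell in saline mice and 6 and 3 in nicotine mice, and without 7-month saline library 2, 10 rose and 4 fell in saline mice.

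**Figure D5:**
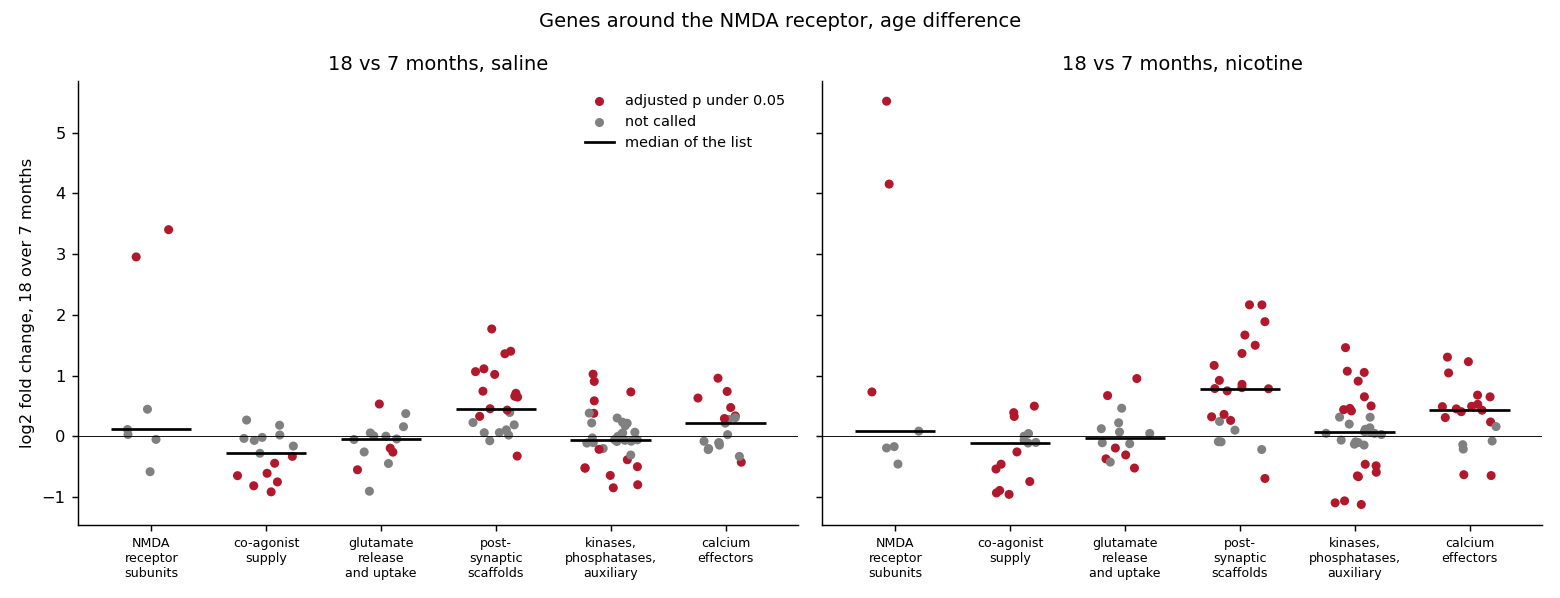
Log2 fold change of 18 over 7 months for each tested gene of the subunit list and the 5 surrounding lists, in saline (left) and nicotine mice (right), red where the edgeR adjusted p is under 0.05, with the median of each list as a bar. The scaffolds have medians of 0.44 and 0.79, and Grin2a and Grin2b lie above every other gene drawn.

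Between nicotine and saline, 0 of the 103 tested genes of these 5 lists were called at 7 months, at 18 months, on average or in the difference between ages (edgeR). Unadjusted p under 0.05 was reached by 7, 11, 3 and 12 of them in that order, and DESeq2 called 0 in each. Over all genes tested it was reached by 1144 of 17596, 1225 of 18196, 1316 of 19171 and 1504 of 19171. At 7 months their log2 fold changes ran from -0.72 to 0.36, with list medians from -0.17 (scaffolds) to 0.04 (co-agonist supply) where the median of all genes was -0.01. At 18 months they ran from -0.34 to 0.56, with list medians from -0.02 to 0.06 where the median of all genes was -0.005.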

How the data were processed

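The deposited files hold raw counts per gene, 1 table per age; reads were aligned with TopHat to GRCm38 per the submitters' processing notes. The counter, annotation and strand setting are not given in the sources used here. The labels' protocol describes a small RNA kit, while the counts cover mRNA genes. Total counts were 21260068 to 29245972 per library. The 2 tables were joined by gene name.

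Each nicotine comparison used the 6 libraries of its age, and the age, averaged and difference comparisons used all 12. edgeR 4.0.16 (limma 3.58.1, R 4.3.3) was run with filterByExpr, TMM factors and the quasi-likelihood test, with Benjamini-Hochberg adjustment over all genes tested and a threshold of 0.05; intervals are at 95%. DESeq2 1.42.0 was an alternative. Log2 CPM used a prior count of 1. Lengths and GC content came from GENCODE M21, and offsets from splines with 4 degrees of freedom. The fits were tested on simulated data. Figures were drawn with matplotlib 3.10.9 (Python 3.11.15), and tables read with pandas 2.3.3.

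The members and gene lists were chosen with earlier results of these data known. All 7 subunits were named, and in each list the called genes of smallest p, up to 4 in either direction, plus 15 genes always named; some of the genes so chosen are not reported here. Replicate numbers did not pair the libraries. Other alternatives were RLE factors, no filter on low counts, a replicate block, other lengths and length borders, and leaving out libraries.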

Additional observations from a re-analysis of the deposited data

How the results depend on the processing

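No subunit was called in a nicotine comparison under any alternative run, though DESeq2 gave no adjusted p for Grin2b in the averaged and difference comparisons. With the replicate block, 0 of 7 subunits were called in each of the 4 nicotine comparisons, 2 in saline and 3 in nicotine mice for age, as without it; the correlations of libraries with the same number were -0.21 to 0.269, so that the numbers do not pair them. Grin2a and Grin2b stayed higher at 18 months in every fit that gave an adjusted p; DESeq2 gave none for Grin2b, so that it called 1 subunit in saline and 2 in nicotine mice. With 3 libraries per group, and 16 to 56 counts of Grin3b, small differences were not detectable. At 7 months larger ones between nicotine and saline were not called either. Grin2b had -2.14 (interval -4.05 to -0.23) and Grin2a -1.12 (interval -2.31 to 0.08) on the log2 scale (edgeR adjusted p = 0.656 for both). Both values rest on 7-month saline library 2. The lack of a call there does not show that a difference was small.

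Counts of called genes over all genes (2, 8, 7 and 1 for nicotine at 7 months, at 18 months, averaged and for the difference) were 83, 57, 79 and 36 with DESeq2 and 6, 35, 15 and 1 with no filter on low counts. All 12 libraries in 1 fit gave 9 and 0 at the single ages, offsets gave 12 averaged, and the block gave 1 at 7 months and 0 for the difference. Without 7-month saline library 2 and nicotine library 1 they were 1 at 7 months, 43 averaged and 6 for the difference, and without both libraries numbered 3 they were 5 at 7 months and 3 for the difference. Without both first libraries they were 0 at 7 months, 2 for the difference, and 5852 for age in saline mice, against 8844 in full and 5867 without both libraries numbered 3. Leaving out 1 library gave 0 to 2, 5 to 21, 2 to 21 and 0 to 3, and for age 6251 to 11793 in saline and 10137 to 12688 in nicotine mice.

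Per kb of the median transcript length, levels in 7-month saline mice were 164 CPM for Grin1, 6.39 for Grin2a, 62.7 for Grin2b, 20.8 for Grin2c and 0.850 for Grin3b, and in 18-month saline mice 177 for Grin1, 49.4 for Grin2a, 662 for Grin2b, 20.1 for Grin2c, 5.66 for Grin3a and 0.567 for Grin3b, so that Grin2b then came first at 18 months. Leaving out 1 library, the SD of log2 CPM in 7-month saline mice was Grin1 0.0365 to 0.134, Grin2a 0.179 to 1.42, Grin2b 0.503 to 2.38, Grin2c 0.0438 to 0.133, Grin2d 0.0673 to 0.337, Grin3a 0.238 to 0.733, Grin3b 0.0967 to 0.646. The age difference of the long (over 5000 nt) minus the short subunits' median log2 CPM, 1.97 in saline and 2.77 in nicotine mice, was 3.19 and 4.12 with a border of 8000 nt and 3.43 in nicotine mice with 4000 nt.

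Log2 differences that changed sign follow, and the cause was not tested. With RLE size factors, Grin2b had 0.0030, Grin2c 0.00018 for nicotine at 18 months, and Slc6a9 had 0.024 for age in saline mice. With no filter on low counts, Grin2b had 0.011, Grin2c 0.0083 for nicotine at 18 months, and Grin2d had -0.0050 for age in saline mice, and Slc6a9 had -0.039 for age in nicotine mice. With DESeq2, Grin2b had 0.0030, Grin2c 0.00027 for nicotine at 18 months, and Slc6a9 had 0.024 for age in saline mice. With length and GC offsets, Grin1 had -0.015, Grin3a 0.048 for nicotine at 7 months, and Grin2c had 0.026 for nicotine at 18 months, and Grin3a had 0.062 for nicotine averaged over ages, and Grin1 had 0.053 for the difference between ages, and Grin2d had -0.17, Grin3a -0.022, Kalrn -0.089, Slc6a9 0.15, Slc1a2 -0.21, Dlg4 -0.087, Prkca -0.19 for age in saline mice, and Grin3a had -0.0019, Creb1 -0.41, Slc17a7 0.25, Slc1a2 -0.16, Slc1a6 0.083, Slc38a1 -0.048, Dlg4 -0.26, Neto1 -0.52 for age in nicotine mice. On genes with a length, without offsets, Grin2b had 1.9e-05 for nicotine at 18 months, and Grin2c had 0.017, Slc6a9 0.051 for age in saline mice. With all 12 libraries in 1 fit, Grin2b had 0.012, Grin2c 0.0097 for nicotine at 18 months. Without both first 7-month libraries, Grin2c had 0.014, Grin2d -0.041, Slc6a9 0.064 for age in saline mice, and Grin1 had -0.00041, Camk2b -0.035 for age in nicotine mice. Without 7-month saline library 2 and nicotine library 1, Grin2d had 0.18, Grin3a 0.12, Grin3b -0.10 for nicotine at 7 months, and Grin2a had 0.020, Grin3a 0.11 for nicotine averaged over ages, and Grin3a had -0.048 for the difference between ages, and Creb1 had 0.20, Slc6a9 0.0095 for age in saline mice, and Camk2b had -0.033 for age in nicotine mice. Without both 7-month libraries numbered 3, Grin3b had -0.13 for the difference between ages, and Grin2d had -0.027, Camk2b 0.025 for age in saline mice. Leaving out 1 library gave Grin1 -0.028 to 0.13, Grin2d -0.22 to 0.082, Grin3a -0.43 to 0.15 for nicotine at 7 months, Grin1 -0.029 to 0.070, Grin2b -0.067 to 0.085, Grin2c -0.022 to 0.022, Grin3a -0.051 to 0.18 for nicotine at 18 months, Grin3a -0.15 to 0.12 for nicotine averaged over ages, Grin1 -0.12 to 0.042, Grin3a -0.078 to 0.46, Grin3b -0.15 to 0.49 for the difference between ages, Camk2b -0.17 to 0.038, Creb1 -0.21 to 0.20, Grin2d -0.069 to 0.21, Slc17a7 -0.046 to 0.17, Slc6a9 -0.15 to 0.087 for age in saline mice, Camk2b -0.042 to 0.15, Grin1 -0.0079 to 0.15, Slc6a9 -0.088 to 0.062 for age in nicotine mice.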
